A study of Mus musculus with 6 samples.

Results

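Glucose uptake and glycolysis were followed through 10 genes, each matched by its symbol to a row of the deposited coverage table of 23518 genes: the glucose transporter gene Slc2a1, the hexokinase genes Hk1 and Hk2, the phosphofructokinase genes Pfkl and Pfkp, the aldolase gene Aldoa, the phosphoglycerate kinase gene Pgk1, the pyruvate kinase gene Pkm, the lactate dehydrogenase gene Ldha and the lactate transporter gene Slc16a3. All 10 genes were found and all 10 passed the filter on low coverage. The ear skin came from HdR mice (3 samples), which carry HOIL1 without its RING1 domain, and from wild-type (WT) mice (3 samples). Every mouse had received imiquimod, as 10 mg of a 5% cream on the ear, and skin was taken at day 1, so the comparison of HdR with WT concerns treated skin and no untreated skin was analysed here. HOIL1, encoded by Rbck1, is a subunit of the ligase complex that makes linear ubiquitin chains, and the labels do not say in which cells the domain is missing. The sources used here state no strain, sex or age and do not say whether each sample was a single animal, and p values therefore measure the spread between these samples.

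Cells take up glucose through transporters such as the product of Slc2a1, and hexokinase then traps it as glucose 6-phosphate. Phosphofructokinase commits the sugar to glycolysis, aldolase splits it, and the later enzymes yield ATP and pyruvate, which lactate dehydrogenase turns into lactate for export. Keratinocytes that divide and activated immune cells are known for high glycolytic flux, and Slc2a1 is the main glucose transporter gene of the epidermis. Transcription of several of these genes is known to be driven by hypoxia-inducible factors, which bind the core sequences ACGTG and GCGTG.

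Between HdR and WT skin 1 of these 10 genes passed the test. Hk1 fell to 52.6% of its WT mean, and the other 9 did not pass the test, with log2 changes between -0.63 for Pfkl and 0.54 for Ldha. That is 1 of 10, where 30.6% of the 15049 genes tested passed (limma, Benjamini-Hochberg adjusted p under 0.05), 12.7% as higher and 17.9% as lower in HdR. Higher calls made up 41.3% of all calls as fitted, 17.6% with total scaling and 53.1% with quantile normalisation. At an unadjusted p under 0.05 the count was 3 of 10, beside 46.1% of all genes, and at an adjusted threshold of 0.1 it was 3 of 10, beside 44.3%. The median log2 change of the 10 was -0.18, and that of all genes tested was -0.13. The 3 HdR libraries lay wholly above or below the 3 WT libraries for 3 of the 10, Aldoa and Ldha above and Hk1 below, where 51.5% of all genes tested did not overlap (20.9% with HdR above and 30.7% with HdR below). Paired by replicate number, the fit passed 3 of the 10, Hk1 and Pfkl as lower and Ldha as higher in HdR, beside 45.5% of all genes. Replicate numbers are not stated to pair the mice, so this fit, the replicate block below, is an alternative only.

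The sequence of the region around the transcription start is shown for Hk1, the gene that fell, for Hk2, which encodes the same activity and did not pass, and for Ldha and Pgk1, whose estimates had opposite signs. The windows run from 250 bases before to 50 bases after a RefSeq start, 5′ to 3′ on the gene's strand (build GRCm38.p6), and capitals mark ACGTG and GCGTG on either strand, where a capital CACGTG holds ACGTG on both strands.
Hk1 upstream start, chr10:62379859-62380158, minus strand: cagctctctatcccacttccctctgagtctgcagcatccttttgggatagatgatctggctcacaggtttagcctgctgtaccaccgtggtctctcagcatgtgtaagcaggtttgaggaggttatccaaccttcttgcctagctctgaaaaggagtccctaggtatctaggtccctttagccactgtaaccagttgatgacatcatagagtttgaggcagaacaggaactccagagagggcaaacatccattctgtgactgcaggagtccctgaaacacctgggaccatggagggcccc
Hk1 downstream start, chr10:62340372-62340671, minus strand: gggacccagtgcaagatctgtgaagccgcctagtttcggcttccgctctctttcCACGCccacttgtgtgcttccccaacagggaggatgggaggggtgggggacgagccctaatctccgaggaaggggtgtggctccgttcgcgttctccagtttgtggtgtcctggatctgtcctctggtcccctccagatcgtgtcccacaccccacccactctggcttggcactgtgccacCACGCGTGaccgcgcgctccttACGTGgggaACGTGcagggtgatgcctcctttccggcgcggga
Hk2, chr6:82774405-82774704, minus strand: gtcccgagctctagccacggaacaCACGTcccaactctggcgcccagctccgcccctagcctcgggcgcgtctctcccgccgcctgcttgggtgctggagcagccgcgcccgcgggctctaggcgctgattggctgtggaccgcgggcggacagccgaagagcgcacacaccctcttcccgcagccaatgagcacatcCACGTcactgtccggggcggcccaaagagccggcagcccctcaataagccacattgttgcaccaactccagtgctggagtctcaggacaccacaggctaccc
Ldha upstream start, chr7:46845554-46845853, plus strand: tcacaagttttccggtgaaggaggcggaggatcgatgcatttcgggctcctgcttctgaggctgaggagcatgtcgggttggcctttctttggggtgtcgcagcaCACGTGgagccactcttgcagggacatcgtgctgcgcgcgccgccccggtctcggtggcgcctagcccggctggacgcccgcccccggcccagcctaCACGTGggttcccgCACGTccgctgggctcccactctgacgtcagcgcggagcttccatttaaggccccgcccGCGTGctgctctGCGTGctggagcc
Pgk1, chrX:106186850-106187149, plus strand: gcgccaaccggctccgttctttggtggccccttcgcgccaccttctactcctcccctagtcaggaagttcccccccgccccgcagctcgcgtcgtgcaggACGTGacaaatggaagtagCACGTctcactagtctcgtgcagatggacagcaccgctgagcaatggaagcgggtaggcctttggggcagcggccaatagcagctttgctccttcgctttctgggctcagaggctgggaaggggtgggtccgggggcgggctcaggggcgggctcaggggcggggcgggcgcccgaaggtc

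All 10 genes had a RefSeq window, 15 windows in all, and 12 of the 15 held at least 1 core, against 43.8% of the 32851 windows of all genes. Among the 12, the Aldoa windows at chr7:126799129-126799428 and chr7:126799205-126799504 overlap and share the same 1 match. The windows of the 10 genes were also richer in G and C, with a median of 65.0% and a range of 51.3% to 73.3%, against a median of 52.7% over all windows, and the part of base composition in this share was not tested. The upstream Ldha window held the most, 7 matches counted on both strands, and it held 2 copies of CACGTG. At least 1 copy of CACGTG was held by 7.15% of all windows. The upstream Hk1 window held 0 and the downstream Hk1 window 5, so the gene that fell has starts of both kinds. Hk2 and Pgk1 held 2 each, and so did the windows of Slc2a1 and Slc16a3, the downstream Ldha window and 1 of the 2 Pkm windows. A match describes these letters only, and a window without one says nothing of a factor's binding.

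The libraries held 4433 to 5264 Mb of aligned sequence in HdR and 5038 to 5966 Mb in WT, equal to 14.8 M to 19.9 M read pairs of 300 bases over both genotypes. Levels below are bases per Mb of aligned sequence, scaled between libraries. Each change is a difference of mean log2(value + 1), HdR minus WT. Rbck1, the gene of HOIL1, read 23.9, 13.0 and 19.7 bases per Mb in HdR and 66.6, 55.1 and 64.1 in WT (log2 change -1.70, limma adjusted p = 0.00438), a sum over the gene that cannot show which part is missing. Keratinocyte genes were abundant in both genotypes, Krt14 at 2453 ± 305 and Krt10 at 3725 ± 352 bases per Mb in HdR, and at 4006 ± 491 and 4116 ± 427 in WT (SD, n = 3 each). Rn45s, the ribosomal RNA precursor, took 0.368%, 1.54% and 1.21% of all bases in HdR and 0.115%, 0.119% and 0.102% in WT, higher in every HdR library, and the part of this difference in ribosomal RNA in the changes below was not tested. Libraries also differed in a trend with transcript length. Each library's slope of log2 deviation on log2 length was -0.13, -0.28 and -0.08 in HdR and 0.20, 0.04 and 0.25 in WT, so long transcripts read lower in every HdR library than in every WT library. Values with this trend removed (length correction) are therefore given for each of the 10 genes and each pathway gene that passed, a choice made with earlier results of these data known, and under it 18.5% of 14901 genes passed, 10.4% as higher.

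Markers of several cell types also differed between the genotypes. All 10 hair follicle genes fell, with a summed level of 34.7 to 142 bases per Mb in HdR and 595 to 907 in WT. Of 8 macrophage genes 7 rose (summed level 2245 to 2621 in HdR, 703 to 1299 in WT), of 7 neutrophil genes tested 5 rose (701 to 3188 in HdR, 145 to 200 in WT) and of 6 adipocyte genes 4 rose (1876 to 2729 in HdR, 507 to 618 in WT). Most of these sums came from Lyz2 for macrophages, S100a8 and S100a9 for neutrophils and Fabp4 for adipocytes. The adipocyte genes Plin1 and Pparg stood at log2 changes of -0.24 and -0.16, and the macrophage gene Adgre1 at 0.28. The neutrophil genes Csf3r and Mmp9 stood at 0.20 and 0.24, and none of these 5 passed. The 10 skeletal muscle genes went both ways. Pvalb, Mylpf, Tnnt3 and Ckm rose, by log2 changes of 1.04 to 1.44. The myosin genes Myh1, Myh4 and Myh2 stood at -1.05, -0.99 and -0.69, the glycogen phosphorylase gene Pygm at -0.87, Acta1 at -0.16 and Actn3 at -0.09, none past the threshold as fitted, and Myh1, Myh4 and Pygm passed as lower with the replicate block. The median over the muscle list was -0.12, while its summed level, carried by the abundant genes, was 3926 to 4903 in HdR and 2091 to 2955 in WT. The summed basal keratinocyte genes read 4441 to 5256 in HdR and 6166 to 7187 in WT, where Krt14 fell and the other 6 did not pass. Smaller counts were 2 of 5 endothelial genes lower, 2 of 6 fibroblast genes lower, 2 of 5 red blood cell genes higher, 1 of 5 suprabasal genes lower and 0 of 4 cartilage genes, by limma and also at an unadjusted p under 0.05 for cartilage. These counts stand beside 30.6% of all genes called. After length correction the counts were 0 for endothelium, 1 for fibroblast, 0 for red blood cells and 0 for suprabasal genes, 5 for macrophage, 3 for muscle, 1 higher and 1 lower for basal keratinocytes, and as before for hair follicle, neutrophil, adipocyte and cartilage. With the replicate block 4 endothelial, 3 fibroblast, 3 suprabasal and 3 basal genes were lower, and 1 fibroblast gene was higher. Of all genes 18.5% passed after length correction and 45.5% with the replicate block. No marker of the lists that moved was at 0 in all libraries of a genotype. In bulk skin, fewer cells of a type and less RNA per cell cannot be told apart, and the part of these markers in the changes below was not tested.

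Slc2a1 (ENSMUSG00000028645.11; GRCm38 chromosome 4, positions 119108711 to 119137983, plus strand) encodes the transporter that brings glucose into keratinocytes. It read 28.3, 28.1 and 24.9 bases per Mb in HdR and 26.2, 22.6 and 29.8 in WT. The HdR libraries lay within the range of the WT libraries, and the log2 change of 0.05 had a 95% confidence interval of -0.32 to 0.43 (limma adjusted p = 0.819). After length correction it was 0.29 (limma adjusted p = 0.193). Slc16a3 (ENSMUSG00000025161.16; chromosome 11, 120948480 to 120960868, plus strand), whose product carries lactate out of cells, was the lowest of the 10. It read 8.51, 7.02 and 8.03 bases per Mb in HdR and 6.57, 5.32 and 10.0 in WT, which rest on 82.1 to 237 read pairs a library. WT spanned a wider range than HdR and enclosed it, and the log2 change of 0.13 (95% interval -0.40 to 0.65, limma adjusted p = 0.686) became 0.49 after length correction (limma adjusted p = 0.107).

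**Figure D1:**
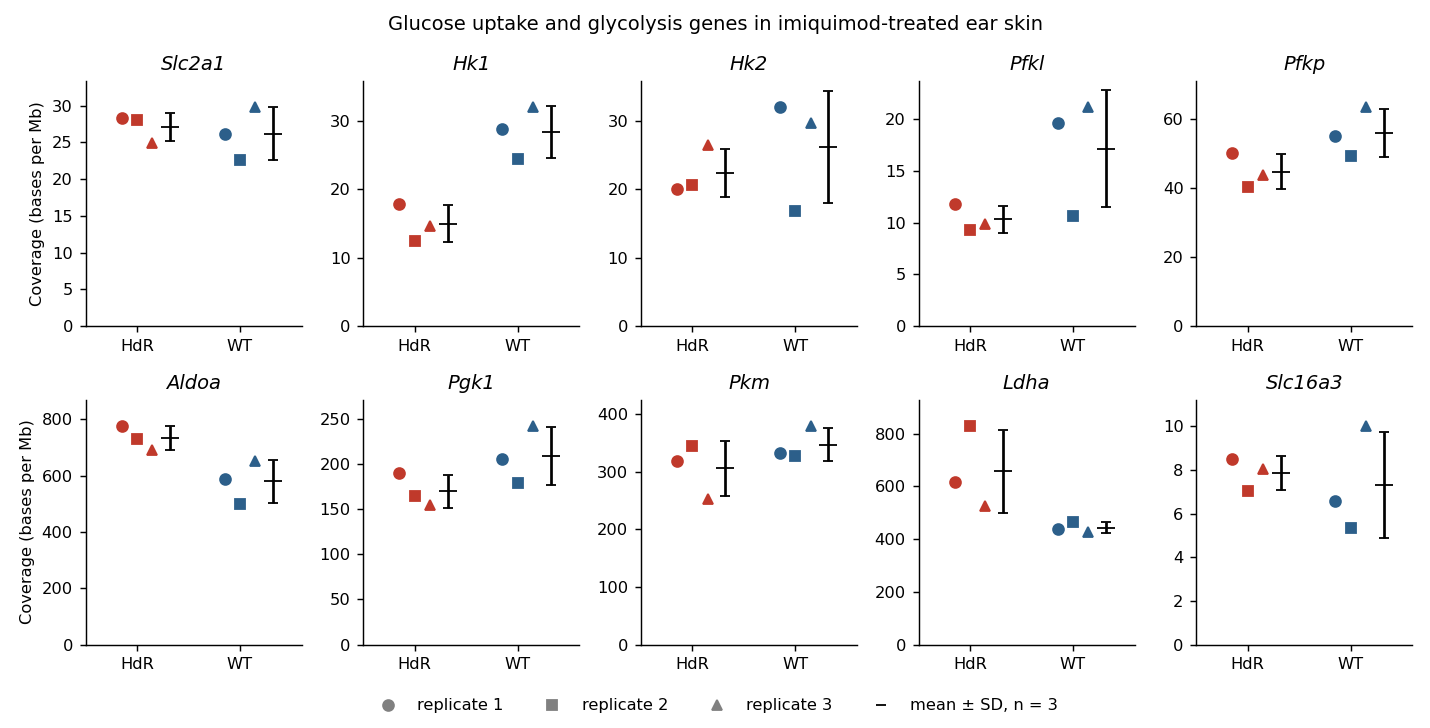
Coverage in bases per Mb (vertical axes, from 0) of the 10 genes in the 3 HdR libraries (red, left) and the 3 WT libraries (blue, right), with marker shapes for replicate numbers and bars for mean ± SD. Hk1 separates the genotypes with HdR below, Aldoa and Ldha with HdR above, and the other 7 overlap.

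Hk1 and Hk2 encode hexokinases, which phosphorylate glucose on entry. Hk1 is the broadly expressed form, and Hk2 is the form of insulin-sensitive and growing tissues. Hk1 (ENSMUSG00000037012.18; chromosome 10, 62268855 to 62379908, minus strand) read 17.8, 12.4 and 14.7 bases per Mb in HdR and 28.8, 24.4 and 31.9 in WT. Every HdR library was below every WT library, and Hk1 fell by 0.89 on the log2 scale (SE 0.19, limma adjusted p = 0.0147). After length correction it fell by 0.53 (SE 0.14, limma adjusted p = 0.0354). The call did not hold without WT replicate 1 (log2 change -0.87, limma adjusted p = 0.0690) or without WT replicate 3 (-0.79, limma adjusted p = 0.0521), nor with the trend removed and HdR replicate 2 left out (-0.49, limma adjusted p = 0.0853). Hk2 (ENSMUSG00000000628.10; chromosome 6, 82725025 to 82774454, minus strand) read 20.001, 20.6 and 26.4 bases per Mb in HdR and 31.97, 16.8 and 29.7 in WT. The genotypes overlapped, with WT replicate 2 the lowest of all 6 libraries. The Hk2 change was -0.18 (95% interval -0.74 to 0.39, limma adjusted p = 0.597) and 0.27 after length correction (limma adjusted p = 0.356).

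The log2 ratio of Hk2 to Hk1 within a library, which does not depend on library scaling beyond the pseudocount, was 0.16, 0.69 and 0.81 in HdR and 0.14, -0.51 and -0.10 in WT. All HdR libraries were above all WT libraries, the closest pair being replicate 1 of each genotype, and the difference of the means was 0.71 (0.80 with the length trend removed). The exact permutation p (two-sided) was 0.1, the smallest that 3 against 3 libraries can give, and 0.3 after Benjamini-Hochberg adjustment over 6 ratios, so a p under 0.05 was out of reach.

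Phosphofructokinase, the committing step, is encoded by Pfkl and Pfkp, named for the liver and platelet forms, and by the muscle gene Pfkm. Pfkl (ENSMUSG00000020277.10; chromosome 10, 77986947 to 78010083, minus strand) read 11.8, 9.30 and 9.88 bases per Mb in HdR and 19.6, 10.7 and 21.1 in WT. WT replicate 2 lay among the HdR libraries, whereas the other two WT libraries were above all of them. The log2 change of -0.63 did not pass (SE 0.26, limma adjusted p = 0.0862), and it passed with the replicate block (limma adjusted p = 0.0291). Without WT replicate 2 it was -0.90 (limma adjusted p = 0.00703), and with the length trend removed it was -0.33 (limma adjusted p = 0.301). Pfkp (ENSMUSG00000021196.14; chromosome 13, 6579768 to 6648777, minus strand) read 50.3, 40.2 and 43.6 bases per Mb in HdR and 55.2, 49.4 and 63.4 in WT. HdR replicate 1 was just above WT replicate 2, and the change of -0.32 (limma adjusted p = 0.161) was 0.03 after length correction (95% interval -0.25 to 0.31).

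The ratio of Pfkp to Pfkl was nearly the same in the HdR libraries, 2.003, 2.001 and 2.037 on the log2 scale, and was 1.45, 2.11 and 1.54 in the WT libraries. The genotypes overlapped, and the difference of 0.31 had an exact permutation p of 0.4 (two-sided, 3 against 3, smallest possible 0.1). Pfkm read 35.8 ± 5.14 bases per Mb in HdR and 57.2 ± 21.3 in WT (SD, n = 3) and missed the threshold (log2 change -0.60, limma adjusted p = 0.110).

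**Figure D2:**
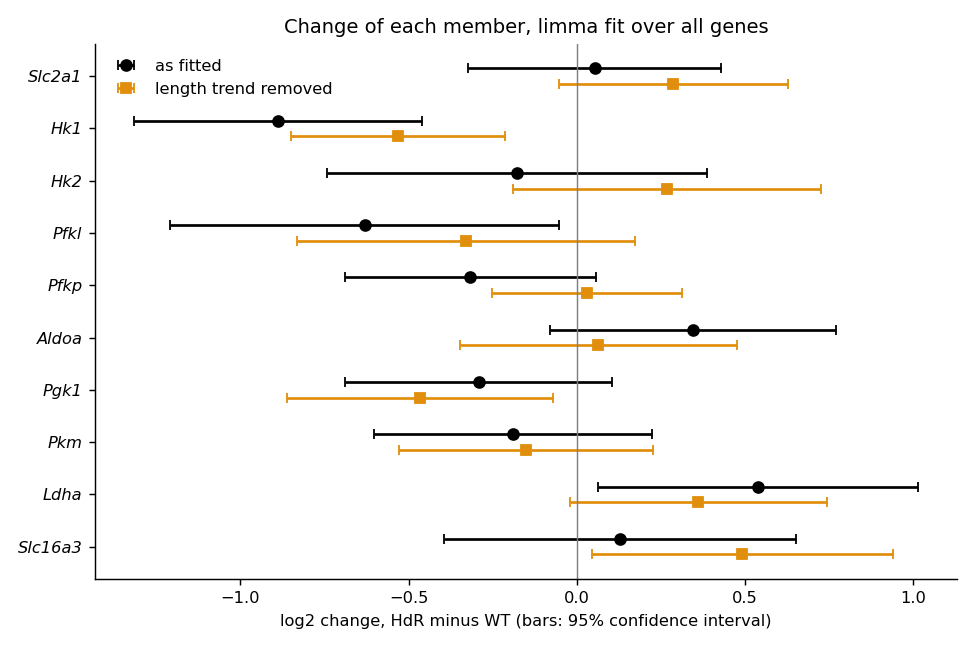
The log2 change, HdR minus WT, of each gene with its 95% confidence interval (horizontal axis), as fitted (black circles) and with the length trend removed (orange squares). Hk1 is the gene whose interval lies farthest from 0 as fitted, at -1.32 to -0.46. Before adjustment over all genes the intervals of Pfkl and Ldha as fitted, and of Pgk1 and Slc16a3 with the trend removed, also leave out 0, and the estimates of Hk2 and Pfkp change sign when the trend is removed.

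Aldoa (ENSMUSG00000030695.16; chromosome 7, 126795234 to 126800751, minus strand), the aldolase gene of muscle and most tissues, had the highest mean coverage of the 10 in each genotype. It read 778, 730 and 693 bases per Mb in HdR and 587, 501 and 652 in WT. Every HdR library was above every WT library, yet the log2 change of 0.34 did not pass (SE 0.19, limma adjusted p = 0.178). Its transcript of 1549 nt is the shortest of the 10, the length trend made up 0.28 of the change, and 0.06 was left with the trend removed (95% interval -0.35 to 0.48). The annotation lists a second gene under the symbol Aldoa, and the table has 1 row of that symbol.

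Pgk1 (ENSMUSG00000062070.12; chromosome X, 106187100 to 106203699, plus strand) encodes the enzyme of the first ATP-yielding step. It read 191, 164 and 155 bases per Mb in HdR and 206, 179 and 243 in WT. HdR replicate 1 lay above WT replicate 2, so the genotypes overlapped. The change was -0.29 (limma adjusted p = 0.217) and -0.47 after length correction (95% interval -0.86 to -0.07, limma adjusted p = 0.0896), and with the trend removed and the replicate block together it passed (limma adjusted p = 0.0493). Relative to Gapdh, the enzyme one step earlier, Pgk1 stood at log2 ratios of -1.64, -2.02 and -1.64 in HdR and -1.20, -1.44 and -1.12 in WT. Each HdR ratio was below each WT ratio, by -0.52 on average and by -0.36 with the length trend removed (exact permutation p = 0.1, two-sided, the smallest possible, 0.3 adjusted over 6 ratios).

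Pkm (ENSMUSG00000032294.17; chromosome 9, 59656368 to 59679375, plus strand) encodes the pyruvate kinase of muscle and of proliferating cells, and a sum over the gene cannot tell its splice forms apart. It read 319, 346 and 253 bases per Mb in HdR and 333, 327 and 380 in WT. HdR replicate 3 was the lowest and the genotypes overlapped, with a change of -0.19 (95% interval -0.60 to 0.22, limma adjusted p = 0.438) and -0.15 after length correction. Scaling to total bases gave -0.51 (limma adjusted p = 0.0470), where the median of all genes was -0.41.

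Ldha (ENSMUSG00000063229.15; chromosome 7, 46841475 to 46855627, plus strand) encodes the lactate dehydrogenase subunit that favours lactate formation. It read 615, 829 and 525 bases per Mb in HdR and 439, 466 and 426 in WT. The HdR libraries were all above the WT libraries and far more spread, with replicate 2 the highest. That library also had the highest summed neutrophil level, 3188 bases per Mb, carried by S100a8 at 1421 and S100a9 at 1708. The other listed neutrophil genes were split. Ly6g, Cxcr2, Mmp8 and Mmp9 were highest in HdR replicate 2, and Retnlg and Csf3r in HdR replicate 3. The part of these genes in the Ldha value was not tested. The log2 change of 0.54 did not pass (SE 0.21, limma adjusted p = 0.0773) but passed with the replicate block (limma adjusted p = 0.0150). It was 0.36 without HdR replicate 2 (limma adjusted p = 0.153), and 0.36 with the length trend removed (limma adjusted p = 0.151). Ldhb, the gene of the other main subunit, read 71.9 ± 3.40 bases per Mb in HdR and 74.5 ± 13.6 in WT (SD, n = 3). The log2 ratio of Ldha to Ldhb was 3.14, 3.52 and 2.78 in HdR and 2.55, 2.91 and 2.26 in WT. As groups they overlapped (exact permutation p = 0.2, two-sided). Within replicate numbers HdR was above WT in 3 of 3 pairs, by 0.59, 0.61 and 0.52, and the exact test over the signs of the pairs gave p = 0.25 (two-sided), the smallest that 3 pairs allow.

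**Figure D3:**
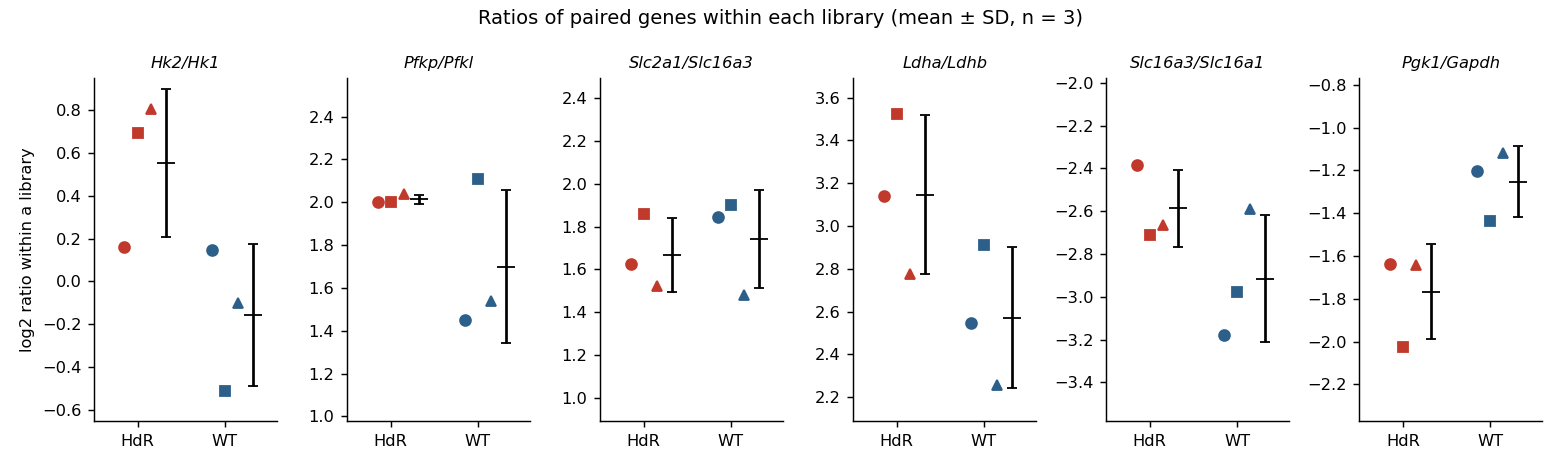
Log2 ratios of paired genes within each library (vertical axes, each spanning the same range of log2 units) in HdR (red, left) and WT (blue, right), with mean ± SD. The ratios of Hk2 to Hk1 and of Pgk1 to Gapdh separate the genotypes and the other 4 overlap.

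Within replicate numbers the ratio of Hk2 to Hk1 was higher in HdR in 3 of 3 pairs, by 0.016, 1.20 and 0.91, and that of Pgk1 to Gapdh lower in 3 of 3, by -0.43, -0.59 and -0.53 (exact test over the signs, two-sided p = 0.25 each). For the other 3 ratios the pairs differed in sign (exact p = 0.5 each). The remaining ratios also overlapped as groups. Slc16a3 to Slc16a1, the 2 lactate transporter genes, stood at -2.59 ± 0.18 in HdR and -2.91 ± 0.30 in WT (SD, n = 3, exact permutation p = 0.3, two-sided). Slc2a1 to Slc16a3, entry against exit, stood at 1.67 ± 0.17 in HdR and 1.74 ± 0.23 in WT (exact permutation p = 0.8). 

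Evaluated at the length of each gene, the trend over all genes made up 0.17 to 0.28 of the log2 change for the short transcripts of Pgk1, Ldha and Aldoa, -0.04 for Pkm, and -0.45 to -0.23 for the 6 longer ones. With it removed, 6 of the 10 estimates were above 0 and 4 below, against 4 above and 6 below as fitted, the median was 0.05 and Hk1 was the 1 gene that passed, as lower in HdR, where 8.03% of all genes passed as lower.

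**Figure D4:**
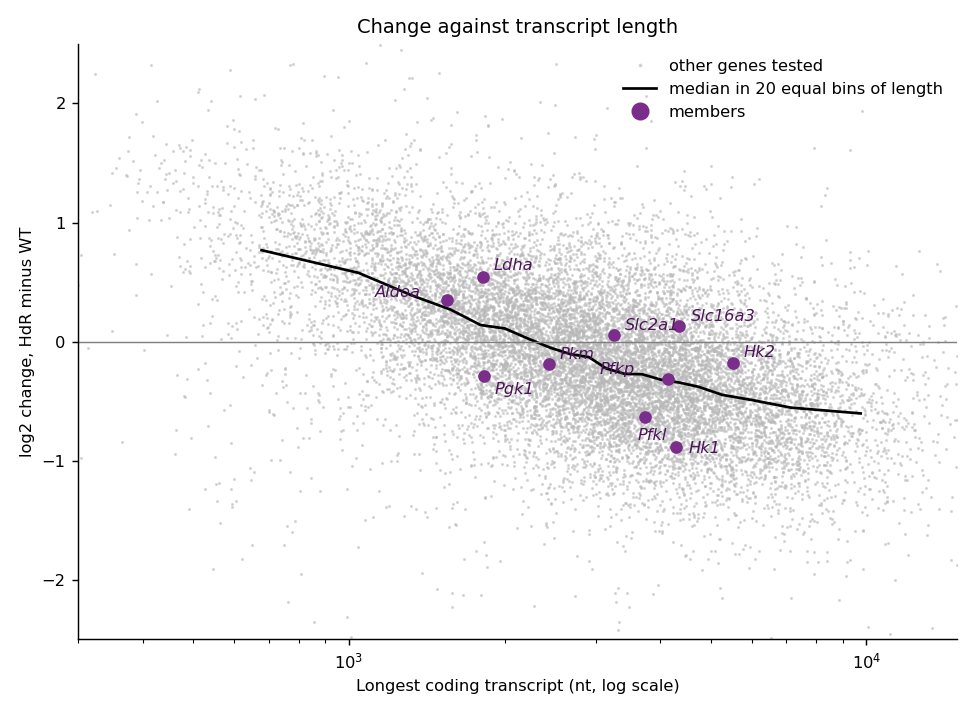
The log2 change of every tested gene with a known length (grey points, 164 of them outside the axes) against transcript length in nt (log scale), with the running median over 20 bins (line) and the 10 genes (purple). Length is that of the longest coding transcript, or of the longest transcript where none is coding. Aldoa lies on the falling median line, Hk1 and Pfkl lie below it and Slc16a3 above it.

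Per kb of the longest coding transcript, which need not be the one expressed, the order of levels ran from Aldoa at 473 ± 27.3 in HdR and 374 ± 49.1 in WT to Slc16a3 at 1.81 ± 0.18 in HdR and 1.68 ± 0.56 in WT (bases per Mb and kb, SD, n = 3). Ldha followed Aldoa at 362 ± 86.2 in HdR and 244 ± 11.5 in WT, then Pkm at 126 ± 19.6 in HdR and 143 ± 11.9 in WT, and Pgk1 at 93.2 ± 10.0 in HdR and 115 ± 17.5 in WT. The genes of uptake and the early steps were far lower, Pfkp at 10.8 ± 1.23 in HdR and 13.5 ± 1.70 in WT, and Slc2a1 at 8.32 ± 0.58 in HdR and 8.04 ± 1.10 in WT. Next came Hk1 at 3.49 ± 0.63 in HdR and 6.64 ± 0.89 in WT, Hk2 at 4.05 ± 0.64 in HdR and 4.75 ± 1.48 in WT, and Pfkl at 2.77 ± 0.35 in HdR and 4.59 ± 1.51 in WT. In HdR the neighbours Aldoa and Ldha, Pkm and Pgk1, Hk2 and Hk1, and Hk1 and Pfkl overlapped. In WT the overlapping neighbours were Slc2a1 and Hk1, Hk1 and Hk2, and Hk2 and Pfkl. Reads of Aldoa, Pgk1, Ldha and Gapdh can also fall on near-identical pseudogenes, and how they were shared out is not given in the sources used here.

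Other genes around the pathway gave 10 higher and 5 lower in HdR of 88 tested, of 98 listed (17.0%, beside 30.6% of all genes). Their median change was -0.00042, against -0.13 over all genes. By list the share that passed as fitted ran from 0% to 37.5%, and each count below stands beside the same 30.6%. With the length trend removed 11 were higher and 3 lower, where 18.5% of all genes passed in either direction. With the replicate block 16 were higher and 16 lower, where 45.5% of all genes passed. Of the 15 genes that passed, the number still past the threshold was 3 when WT replicate 1 was left out and 10 when WT replicate 3 was. Over all genes the number that passed went from 4605 to 427 and 1353 in these fits. Leaving out HdR replicate 1, 2 or 3 gave 10, 10 and 11 in that order, and all 15 kept their direction in each.

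**Figure D5:**
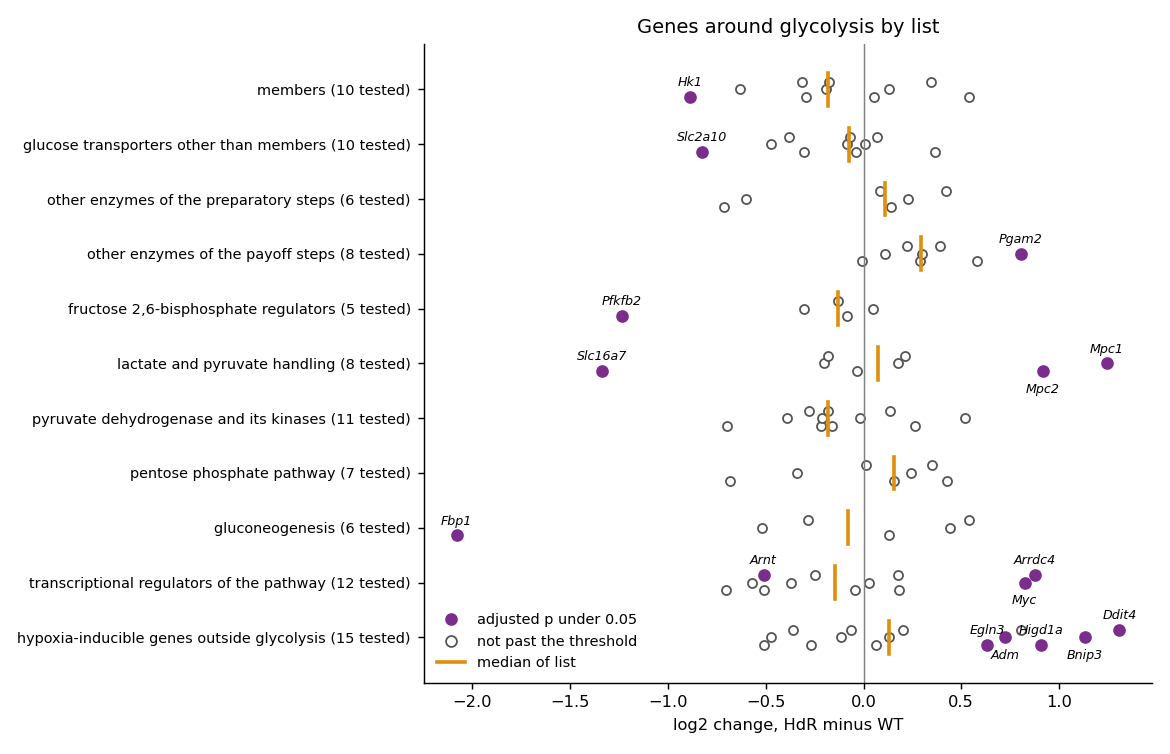
The log2 change, HdR minus WT, of the 10 genes (top row) and of the genes of 10 lists around glycolysis, with filled points for an adjusted p under 0.05, open points for the rest and an orange bar for the median of the list. Hypoxia-inducible genes and pyruvate carriers hold the points farthest to the right, and Fbp1 stands farthest to the left at -2.08. The Fbp1 levels in HdR lie near the pseudocount of 1.

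Among the other glucose transporters 1 of 10 tested changed (10%, beside 30.6% of all genes). Slc2a10 fell to 1.39 ± 0.28 bases per Mb in HdR, against 3.22 ± 0.13 in WT (log2 change -0.83, limma adjusted p = 0.0150), and did not pass with the length trend removed (-0.55, limma adjusted p = 0.0892) or without WT replicate 1 (limma adjusted p = 0.0731). With the replicate block Slc2a12 also passed as lower (11.7 ± 1.96 in HdR, 16.6 ± 1.56 in WT, limma adjusted p = 0.0710 as fitted). With the trend removed the sodium-coupled transporter gene Slc5a1 passed instead, at 35.6 ± 3.45 in HdR and 27.6 ± 4.89 in WT (SD, n = 3, limma adjusted p = 0.0180). None of the 6 other genes of the preparatory steps passed by limma, with Hk3 at a log2 change of -0.71 and Tpi1 at 0.42 having the smallest adjusted p values, 0.0908 and 0.107. With the replicate block Tpi1 passed as higher, and Hk3, the hexokinase gene of blood cells, and Pfkm as lower. Of 8 other genes of the payoff steps 1 passed (12.5%, beside 30.6% of all genes). Pgam2, the muscle phosphoglycerate mutase gene, rose to 65.2, 94.8 and 57.2 bases per Mb in HdR, against 41.4, 33.9 and 45.7 in WT (log2 change 0.80, limma adjusted p = 0.0265). Its transcript is short, and with the length trend removed 0.24 was left (limma adjusted p = 0.426). It also did not pass without WT replicate 1, HdR replicate 1 or HdR replicate 2 (limma adjusted p = 0.0846, 0.0528 and 0.0569). Eno3, the muscle enolase gene, stood at 254 ± 49.4 bases per Mb in HdR and 169 ± 28.0 in WT, short of the threshold (log2 change 0.58, limma adjusted p = 0.0555), and passed with the replicate block. After length correction Eno3 stood at 0.30. Of the 10 skeletal muscle markers 4 were higher in HdR and the other 6 had changes below 0, with a list median of -0.12, and their part in the values of Pgam2 and Eno3 was not tested. Gapdh (584 ± 92.5 in HdR, 497 ± 27.8 in WT) and Eno1 (138 ± 17.4 in HdR, 138 ± 4.37 in WT) did not pass either.

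Pfkfb2, whose enzyme makes and breaks the phosphofructokinase activator fructose 2,6-bisphosphate, fell. It read 33.1, 17.0 and 31.0 bases per Mb in HdR and 59.6, 53.4 and 77.1 in WT, which did not overlap (log2 change -1.24, limma adjusted p = 0.0145, and after length correction -0.87, limma adjusted p = 0.0259). Without WT replicate 1 the adjusted p was 0.0573 by limma. The other 4 genes of this list did not pass, Pfkfb3 among them at 16.5 ± 2.77 in HdR and 20.5 ± 2.02 in WT (SD, n = 3).

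Of 8 genes of lactate and pyruvate handling 2 rose and 1 fell (37.5%, beside 30.6% of all genes). Mpc1 and Mpc2 encode the subunits of the mitochondrial pyruvate carrier. Mpc1 read 235, 347 and 238 bases per Mb in HdR and 106, 152 and 89.1 in WT (log2 change 1.24, limma adjusted p = 0.0127, and after length correction 0.73, limma adjusted p = 0.0211). Mpc2 read 176, 234 and 184 in HdR and 99.8, 122 and 91.3 in WT (0.92, limma adjusted p = 0.0131, and after length correction 0.42, limma adjusted p = 0.0434). Both were higher in each HdR library, with replicate 2 the highest in each genotype, and neither passed without WT replicate 1 (limma adjusted p = 0.0581 and 0.0656). Slc16a7, a monocarboxylate transporter gene, fell to 8.74, 6.60 and 10.99 bases per Mb in HdR, against 21.2, 27.0 and 22.0 in WT (log2 change -1.34, limma adjusted p = 0.00782, and after length correction -0.74, limma adjusted p = 0.0481). It passed without each library in turn.

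Of 11 genes of pyruvate dehydrogenase and its kinases none passed by limma, and with the replicate block Pdk4 passed as higher and Pdk2 as lower. Pdk4, a kinase gene that shuts pyruvate dehydrogenase off, had the smallest p, at 63.3 ± 6.85 bases per Mb in HdR and 44.7 ± 11.6 in WT (log2 change 0.52, limma adjusted p = 0.0793, and after length correction 0.79, limma adjusted p = 0.0269). None of 7 pentose phosphate genes passed, the lowest change being that of G6pdx at -0.68 (limma adjusted p = 0.0504). With the replicate block G6pdx, of the first step, passed as lower, and Taldo1 and Pgls as higher. In gluconeogenesis Fbp1, the fructose bisphosphatase gene, fell to 0.79, 1.13 and 0.96 bases per Mb in HdR, against 5.90, 6.36 and 10.2 in WT (log2 change -2.08, limma adjusted p = 0.00257, and after length correction -2.39, limma adjusted p = 0.00303). It had the largest log2 change of the 88 genes tested, and it passed without each library in turn. Every WT library reached the filter of 1 base per Mb for Fbp1, and of the HdR libraries only replicate 2 did. The HdR values rest on 12.92, 13.27 and 13.98 read pairs and lie near the pseudocount of 1. The size of the Fbp1 change therefore depends on the pseudocount. The other 5 genes of the list did not pass as fitted, so 1 of 6 passed (16.7%, beside 30.6% of all genes). With the replicate block Pck2 passed as lower too (9.61 ± 1.91 in HdR, 14.1 ± 1.18 in WT).

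Of 12 transcriptional regulators 2 rose and 1 fell (25%, beside 30.6% of all genes). Arrdc4, a target of the glucose-sensing Mlx factors that limits glucose uptake, rose to 63.4 ± 4.97 bases per Mb in HdR, against 34.7 ± 8.99 in WT (log2 change 0.88, limma adjusted p = 0.0165, and after length correction 1.20, limma adjusted p = 0.0160). Myc, which can activate Ldha and other glycolytic genes, rose to 39.7, 36.3 and 48.0 bases per Mb in HdR, against 31.9, 15.6 and 23.6 in WT (log2 change 0.82, limma adjusted p = 0.0377, and after length correction 0.83, limma adjusted p = 0.0491). Arnt, the partner subunit of hypoxia-inducible factors, fell (log2 change -0.51, limma adjusted p = 0.0337) and did not pass with the length trend removed (-0.15, limma adjusted p = 0.385). Myc and Arnt kept the call in 1 of the 6 fits without a library, that without WT replicate 2, and Arrdc4 lost it when WT replicate 1, WT replicate 3 or HdR replicate 2 was left out (limma adjusted p = 0.0802, 0.0546 and 0.0504). Hif1a itself stood at 119 ± 20.4 in HdR and 141 ± 17.1 in WT and did not pass (limma adjusted p = 0.302). With the replicate block Mlxip, Trp53 and Epas1 passed as lower beside Arnt, and Arrdc4 and Myc as higher.

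Hypoxia-inducible genes outside glycolysis gave 5 higher and 0 lower of 15 (33.3%). Of all genes 30.6% passed in either direction, near that share, and 12.7% passed as higher. After length correction the count was again 5 higher and 0 lower, beside 18.5% of all genes in either direction and 10.4% as higher. Adm was lost and Mxi1 gained (77.0 ± 15.9 in HdR, 72.5 ± 2.35 in WT, corrected log2 change 0.48, limma adjusted p = 0.0474). Bnip3, a mitophagy receptor gene, rose to 223, 260 and 232 bases per Mb in HdR, against 108, 115 and 101 in WT (log2 change 1.13, limma adjusted p = 0.00455, and after length correction 0.93), and it passed without each library in turn. The mTOR inhibitor gene Ddit4 rose to 47.1, 95.8 and 58.4 in HdR, against 19.6, 29.3 and 28.3 in WT (log2 change 1.31, limma adjusted p = 0.0142, and after length correction 1.11, limma adjusted p = 0.0249). The mitochondrial gene Higd1a rose by a log2 change of 0.91 (limma adjusted p = 0.0124, corrected 0.88, limma adjusted p = 0.0140), and the prolyl hydroxylase gene Egln3 by 0.63 (limma adjusted p = 0.0318, corrected 0.74, limma adjusted p = 0.0187). The peptide gene Adm rose by 0.72 as fitted (limma adjusted p = 0.0456), and did not pass after length correction (0.38, limma adjusted p = 0.165). For all 5 the HdR libraries were above the WT libraries. Without WT replicate 1 Bnip3 alone of the 5 passed, and 3 of 15 were higher without HdR replicate 1, HdR replicate 3 or WT replicate 3. With total scaling 3 were higher and 3 lower, and with the replicate block 6 were higher, Ankrd37 joining, and Loxl2 and Vegfa lower. Vegfa, the angiogenic growth factor gene (26.9 ± 6.57 in HdR, 38.7 ± 9.22 in WT), and Car9, a carbonic anhydrase gene (1.07 ± 0.39 in HdR, 1.14 ± 0.07 in WT), did not pass as fitted.

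By the root mean square difference of centred log2 values over the 6 libraries, the genes most like Slc2a1 among 9924 were Atp5a1 (0.037), Nob1 (0.053) and Rab38 (0.059). Atp5a1, an ATP synthase subunit gene, read 536, 539 and 480 bases per Mb in HdR and 505, 467 and 566 in WT, the same order of libraries within each genotype but for the close pair of HdR replicates 1 and 2. For Slc16a3 the nearest of 9925 included Liph (0.098) and Zmiz1 (0.10). Liph, a phospholipase gene, read 26.5, 23.6 and 25.4 in HdR and 23.3, 21.4 and 32.5 in WT, with WT replicate 3 the highest as in Slc16a3.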

How the data were processed

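RNA of mouse ear skin was sequenced in 3 HdR and 3 WT samples, with NEBNext Ultra II libraries on a NovaSeq instrument, per the labels' protocols. The genome build was GRCm38, per the submitters' processing notes; aligner, counter, annotation and strand setting: not given in the sources used here. As read from its values, the deposited table holds coverage signal, aligned bases per gene, with no scaling seen. Values gather at 300, the bases of a read pair (10.3% of values up to 3000 are multiples, 0.333% by chance). They are therefore not counts, and the main fit used no count test. The alternative with voom weights, a method made for read counts, took these sums of bases in their place. A value of 1 base per Mb rests on 11.7 to 23.6 read pairs. Intervals and tests cover these libraries only.

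Bases per Mb of effective library size (trimmed mean of M values) were put on a log2 scale with a pseudocount of 1 and tested two-sided by limma-trend with robust variance (limma 3.58.1 in R 4.3.3). A gene entered when 3 or more libraries reached 1 base per Mb, which left 15049 genes, with Benjamini-Hochberg adjustment over all of them and a threshold of 0.05. The length trend is a spline with 4 degrees of freedom on log2 transcript length, removed from each library. Length was that of the longest coding transcript in GENCODE M21, or of the longest transcript where none was coding. It was found for 23087 of the 23518 symbols of the deposited table. Ratios were compared by exact permutation of the 6 libraries and, a test added after the data were seen, within replicate numbers. Alternatives were other scalings, voom weights, filters, a pseudocount of 0.1, a threshold of 0.1, a replicate block and each library left out.

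Libraries of the same number deviated together (correlation across genes of deviations from genotype means 0.16, 0.42 and 0.37 for numbers 1, 2 and 3), which is the only source of the pairing. Unmatched numbers gave -0.38 to 0.16, so number 1 stood little above HdR replicate 3 with WT replicate 1. In both genotypes the slope on transcript length was also lowest in replicate 2 and highest in replicate 3. The part of the length trend in these correlations was not tested. The 10 genes, the lists, the tests and the alternatives were chosen with earlier results of these data known. By the naming rule the text gives the 10 genes, Rbck1, up to 4 genes of each pathway list by smallest adjusted p, every gene of a direction with 5 or fewer, and the 3 genes nearest in pattern to Slc2a1 and to Slc16a3. Among genes with a mean of at least 10 bases per Mb, gene models and Rik names were left out of the last. For Slc16a3, 1 of the 3 is not reported here. Eno1, Hif1a, Mxi1, Vegfa, Car9, Loxl2, Ankrd37, Epas1, Trp53, Krt10 and the marker genes were chosen after their values were seen, and Gapdh, Ldhb and Slc16a1 belong to the ratios.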

Additional observations from a re-analysis of the deposited data

How the results depend on the processing

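Of the 10 genes, the number past the threshold was 1 as fitted, 2 with total scaling, 3 with voom weights, 3 with the replicate block, 3 at a threshold of 0.1, 2 with the length trend removed and the replicate block, 0 with the length trend removed and without HdR replicate 2, and 0 to 2 without one library. Hk1 was below 0 in all 18 alternatives (log2 -1.19 to -0.49) and passed in 15. The threshold of 0.1 is the same fit at a looser cut, where Hk1 could not lose its call. It is included in the counts for Hk1, Pfkl and Ldha. Pfkl and Ldha passed in 4 and 3, Pgk1 and Pkm in 1 each, and the other 5 genes in none (lowest limma adjusted p 0.0543, for Aldoa). The estimates of Hk2 and Pfkp changed sign in 3, of Slc2a1 and Slc16a3 in 2, and of Aldoa in 1. Beside Pfkl and Ldha, the replicate block changed no other call among the 10. Of all genes tested 4605 passed as fitted, 8045 with voom weights, 2144 with no filter, 2752 with the length trend removed, 662 with that and without HdR replicate 2, and 427 to 6016 without one library (427 when WT replicate 1 was left out, 1353 for WT replicate 3, 1912 for HdR replicate 2 and 2812 for HdR replicate 1). Total scaling moved the median of all genes to -0.41, and higher calls were 56.5% of calls with the length trend removed. Of the pathway and marker genes 53 passed as fitted, 90 with voom weights, 81 with the replicate block, 30 with the length trend removed and without HdR replicate 2, and 26 to 69 without one library. The cause of these shifts was not tested. Depth limits Slc16a3 most among the 10, with 82.1 read pairs in HdR replicate 2.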
